A study of Mus musculus with 12 samples.

Results

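The chemokine ligands were the 39 rows of the gene table, of 37583 in all, whose symbol is Ccl or Cxcl with a number, together with Cx3cl1 and Xcl1. They stand for 38 symbols, since Ccl25 is listed under 2 gene identifiers and the second one (ENSMUSG00000055951) had no read. RNA was measured in blood of wild type mice that had all received the Burn/tenotomy injury, in 3 groups of 4 libraries called 6h, Day1 and Day7 after the time given in their titles. An uninjured group and the animals' ages were not analysed here. The labels describe the material as cMPCs and blood cells that a microfluidic device, the iChip, had enriched from whole blood, so each library is a mixture of cell types. In such bulk samples fewer cells of a type and less RNA per cell cannot be told apart. The labels do not say that replicates came from separate animals, and the p-values below cover only the spread of these libraries, part of which may be technical.

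Chemokines are small secreted proteins that guide the migration of cells through G protein-coupled receptors on the migrating cell. Inflammatory chemokines are induced in injured or infected tissue by macrophages, stromal cells and endothelium and draw neutrophils, monocytes and activated lymphocytes, and many of them are targets of NF-kB. Homeostatic chemokines are made without an inflammatory stimulus and place lymphocytes and stem cells in their organs, as Cxcl12 does for haematopoietic stem cells in bone marrow. By this textbook division 20 rows were inflammatory, 11 were homeostatic (Ccl19, Ccl21a, Ccl21b, Ccl21c, both Ccl25 rows, Ccl27a, Ccl27b, Cxcl12, Cxcl13 and Cxcl14) and 8 belonged to neither class (Ccl6, Ccl9, Ccl17, Ccl20, Ccl22, Cxcl15, Cxcl17 and Xcl1).

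The promoters of 4 ligands are shown for the kappaB element, the 3 inflammatory ones being among those that hold a match. The 250 bases before the start of Cxcl1, Cxcl2 and Cxcl10, which are inflammatory, are set beside those of the homeostatic Cxcl12, from RefSeq on GRCm38.p6. Capitals mark matches to the kappaB consensus, the DNA element bound by NF-kB, on either strand.
Cxcl1: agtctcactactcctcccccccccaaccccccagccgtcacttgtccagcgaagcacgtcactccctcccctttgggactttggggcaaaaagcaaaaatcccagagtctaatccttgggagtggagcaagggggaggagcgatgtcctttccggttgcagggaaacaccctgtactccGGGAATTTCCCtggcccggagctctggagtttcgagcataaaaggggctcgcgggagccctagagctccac
Cxcl2: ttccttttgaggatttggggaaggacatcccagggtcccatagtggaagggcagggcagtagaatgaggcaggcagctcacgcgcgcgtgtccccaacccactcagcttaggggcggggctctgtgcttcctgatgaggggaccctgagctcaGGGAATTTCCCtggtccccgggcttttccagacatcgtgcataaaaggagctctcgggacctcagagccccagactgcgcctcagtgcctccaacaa
Cxcl10: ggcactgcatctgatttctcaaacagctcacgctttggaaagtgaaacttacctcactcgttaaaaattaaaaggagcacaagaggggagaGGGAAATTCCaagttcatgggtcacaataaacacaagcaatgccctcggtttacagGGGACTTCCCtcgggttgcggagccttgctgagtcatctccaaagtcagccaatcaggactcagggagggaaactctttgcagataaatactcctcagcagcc
Cxcl12: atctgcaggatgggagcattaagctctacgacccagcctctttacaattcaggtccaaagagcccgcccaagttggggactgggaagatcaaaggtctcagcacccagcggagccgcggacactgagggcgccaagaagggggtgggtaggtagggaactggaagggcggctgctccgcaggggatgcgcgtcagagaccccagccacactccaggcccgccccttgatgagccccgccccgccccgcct
The windows are chr5:90890995-90891244 on the plus strand for Cxcl1, chr5:90903649-90903898 on the plus strand for Cxcl2, chr5:92348890-92349139 on the minus strand for Cxcl10 and chr6:117168285-117168534 on the plus strand for Cxcl12. In Cxcl1 the kappaB match lay 71 to 62 bases before the start and overlapped a match on the other strand 70 to 61 bases before it. Cxcl2 had the same pair of letters at 97 to 88 and 96 to 87 bases before its start. Cxcl10 had kappaB matches at 159 to 150 and 103 to 94 bases before its start. No match was found in the Cxcl12 window.

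Promoters were matched for 26 of the 38 symbols. They had 32 promoters in the table. A kappaB match was found in 6 of these 32 promoters, each of another gene, and in 3.9% of all 32851 promoters of that length. By class it was found in 4 of 10 inflammatory genes (Cxcl1, Cxcl2, Cxcl3 and Cxcl10), 0 of 9 homeostatic genes and 2 of 7 others (Ccl9 and Ccl20). The inflammatory Ccl1, Ccl3, Ccl8, Ccl12, Cxcl9 and Cx3cl1 had none. TATAAA, a form of the TATA box, was found in 10 of the 32 and in 12.4% of all promoters. These matches describe letters in these windows and no binding was measured.

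Values are given as the authors deposited them: reads of a gene times 1 factor per library, so that 1 read was worth 0.0314 to 0.617. Libraries held 5098395 to 12379041 reads, of which haemoglobin genes took 16.1% to 70.3%, and 7631 to 16647 genes had a read. 6h replicate 1 and Day7 replicate 3 had the fewest genes. Y-linked genes had reads in 5 libraries, 2 of 6h and 3 of Day1, and in none of Day7. Summed over their lists, erythroid markers were at 888 to 196934 in every library, neutrophil markers at 0.311 to 721 and endothelial markers at 0 to 239.6.

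Transcripts of 30 of the 39 ligand rows were detected with at least 1 read in some library. They were 17 of the 20 inflammatory, 6 of the 11 homeostatic and 7 of the 8 other rows. No read was listed for Ccl1, Ccl20, Ccl26, Cxcl11, Ccl21a, Ccl21b, Ccl21c, Ccl27b and the second Ccl25 row. Ccl21a, Ccl21b and Ccl21c, and likewise Ccl27a and Ccl27b, are near-identical copies whose reads the counting could have split or dropped, so their values are uncertain. Ccl5 and Ccl6 alone were read in all 12 libraries. In 16 rows a single library held more than 50% of the summed value of that row.

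The whole family was a small part of each library, and its level ranged widely among the libraries of 1 time. Its reads numbered 3036, 95, 301 and 2363 in the 4 libraries of 6h, 560, 3913, 1680 and 2188 at Day1, and 4028, 299, 55 and 523 at Day7, with replicates in order. This came to between 6.05 RPM (reads scaled to the library's total) in Day7 replicate 3 and 499 in 6h replicate 1. Between 5 rows (Day7 replicate 3) and 25 rows (Day1 replicate 2) had a read.

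**Figure D1:**
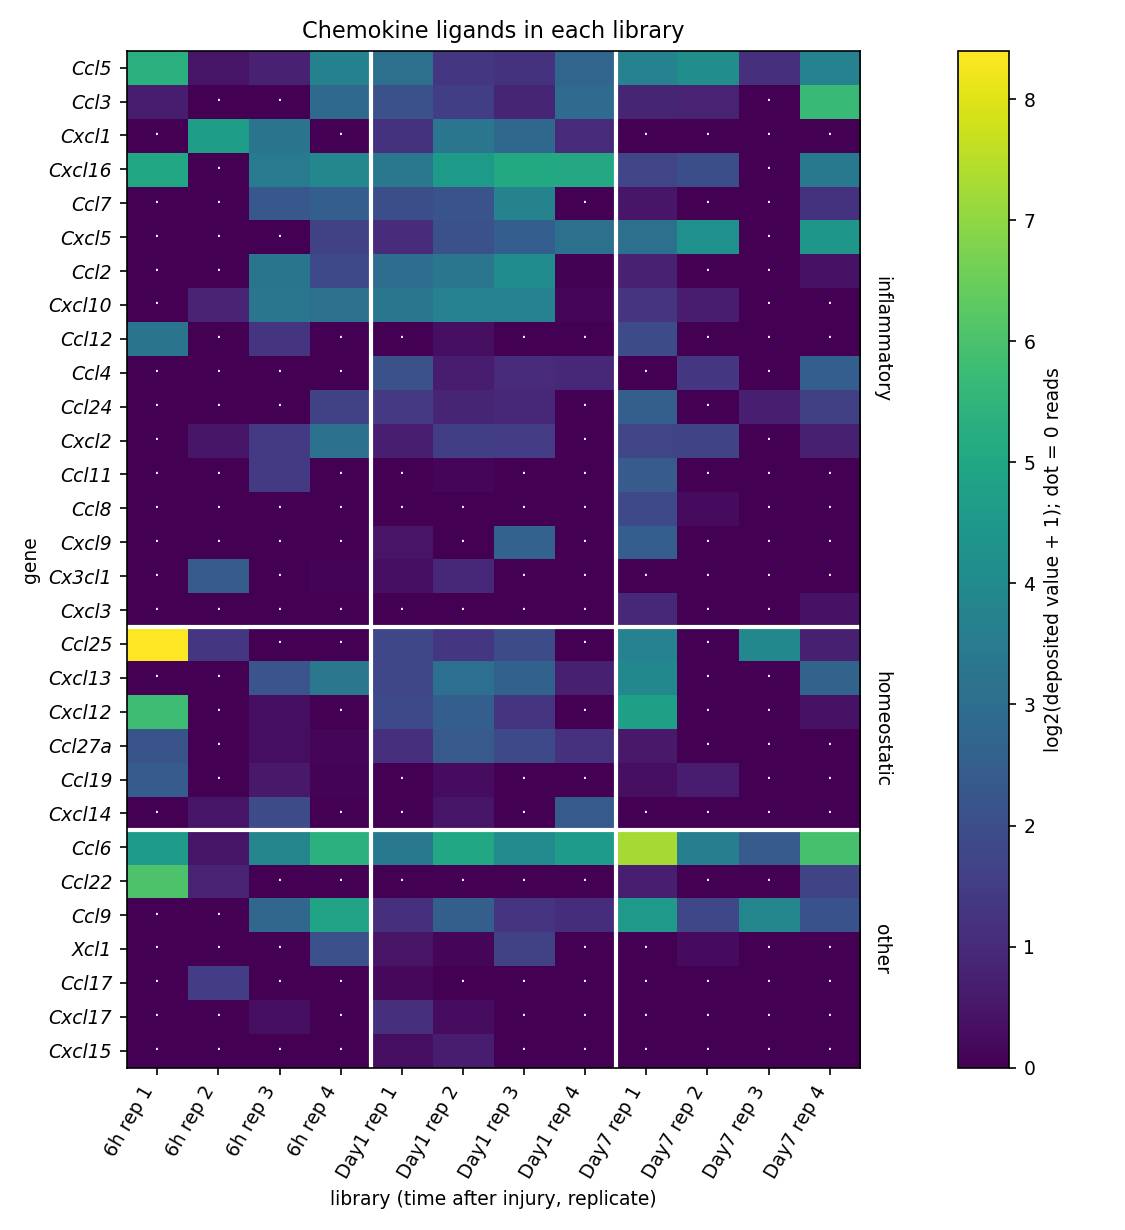
Levels of the chemokine ligands that had a read, by library. Rows are genes grouped by class, columns are the 12 libraries, and colour gives log2(deposited value + 1), brighter for higher values. A dot marks a library without a read. Ccl6 and Ccl5 have no dot in any column, while Ccl25, Ccl22 and Cxcl12 are brightest in 6h replicate 1.

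Divided by gene length, inflammatory ligands together stood above homeostatic ones in 10 of the 12 libraries. These sums run over 20 inflammatory and 11 homeostatic rows, of which 17 and 6 had a read, and were not divided by the number of genes. The summed value per kb of the inflammatory class was 63.0, 28.9, 34.8 and 44.5 at 6h, 38.7, 44.2, 61.8 and 30.5 at Day1, and 41.1, 33.4, 1.77 and 103 at Day7. For the homeostatic class it was 136, 0.765, 5.26 and 7.89 at 6h, 3.87, 9.56, 6.67 and 3.43 at Day1, and 20.3, 0.522, 5.22 and 4.83 at Day7. The inflammatory sum lay between 28.9 and 103 in 11 libraries and was far lower in Day7 replicate 3. The homeostatic sum was highest in 6h replicate 1, followed by Day7 replicate 1. Not divided by length, the homeostatic sum of Day7 replicate 1 also stood above the inflammatory one, at 53.8 against 48.2.

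Both exceptions per kb rested on Ccl25, a ligand of gut and thymus that guides T cells through Ccr9. In 6h replicate 1 Ccl25 made up 91.1% of the homeostatic sum per kb, and in Day7 replicate 3 the class consisted of 23 Ccl25 reads, set against 3 inflammatory reads. Leaving Ccl25 out, which was chosen after its values were seen, raised the inflammatory share in 6h replicate 1 to 83.9%, while in Day7 replicate 3 it left 0 homeostatic reads and so no comparison. The inflammatory share of both classes per kb was 82.2% to 90.9% in the 4 Day1 libraries, and it ran from 31.7% to 97.4% at 6h and from 25.3% to 98.5% at Day7.

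**Figure D2:**
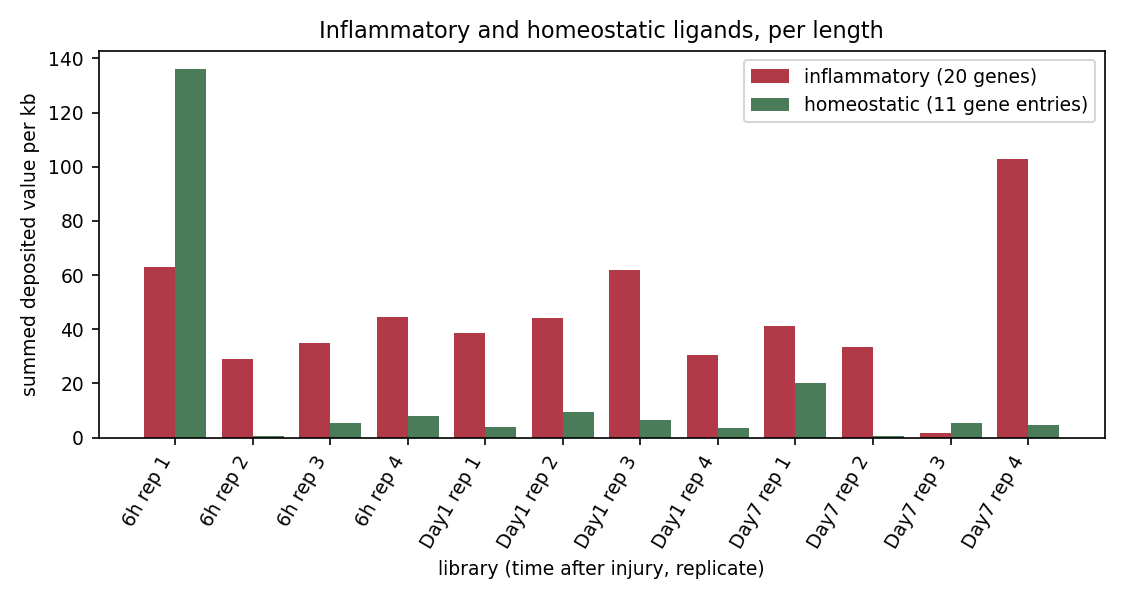
Summed deposited value per kb of the inflammatory (20 genes) and homeostatic (11 gene entries) ligands in each of the 12 libraries. The inflammatory bar is the taller one in 10 libraries; the exceptions are 6h replicate 1 (63.0 against 136) and Day7 replicate 3 (1.77 against 5.22).

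Per kb, the highest medians over the 12 libraries were those of Ccl6 at 8.29, Ccl5 at 6.93, Cxcl16 at 2.77, Cxcl13 at 2.60 and Cxcl5 at 1.46. By the mean over libraries Ccl6 also came first, at 13.8 per kb. Ccl25 had a mean of 11.4 and a median of 0.556 per kb, a gap that reflects its value in 1 library.

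Differences between times were tested with limma on log2(value + 1) for the 11211 genes that reached a value of 1 in 4 or more libraries. That filter kept 17 ligands, of which 11 were inflammatory (Ccl2, Ccl3, Ccl4, Ccl5, Ccl7, Ccl24, Cxcl1, Cxcl2, Cxcl5, Cxcl10 and Cxcl16), 4 homeostatic (Ccl25, Ccl27a, Cxcl12 and Cxcl13) and 2 neither (Ccl6 and Ccl9). None of these 17 had an adjusted p under 0.05 in limma in any of the 3 comparisons. The comparisons share groups, so they are not independent of each other.

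From Day1 to Day7 the ligands with the lowest unadjusted p were all lower at Day7. Ccl2, Cxcl1, Cxcl10, Cxcl16 and Ccl27a had an unadjusted p under 0.05 in limma, 5 of 17 ligands, where 18% of all tested genes did so in that direction. No ligand was higher at that limit, where 11.1% of all genes were. Of all tested genes limma called 3.59% lower and 2.19% higher with an adjusted p under 0.05. Except for Cxcl16, these ligands had means under 10 in every group and were named after their values were seen.

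Ccl2, the main attractant of monocytes through Ccr2, had values of 0, 0, 8.69 and 2.64 at 6h, 7.04, 8.79, 16.1 and 0.0389 at Day1, and 0.688, 0, 0 and 0.333 at Day7. Day1 replicates 1 to 3 were above every Day7 library, but Day1 replicate 4, with 1 read's worth of signal, lay inside the Day7 range, so the groups overlapped. The log2 difference of Day7 from Day1 was -2.32 (SE 0.87), with an adjusted p of 0.0889 in limma. Added up over libraries, 550 reads at Day1 stood against 11 at Day7, a ratio of 15.5 after scaling (95% interval 8.58 to 31.2, counting error only). That ratio was 12.7 without Day1 replicate 2 and 68.8 (95% interval 12.3 to 2721) without Day7 replicate 1, which held 10 of the 11 reads.

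Ccl7, a neighbour of Ccl2 on the chromosome that uses the same receptor, had values of 0, 0, 3.86 and 4.74 at 6h, 3.09, 3.55, 12.6 and 0 at Day1, and 0.413, 0, 0 and 1.33 at Day7. As with Ccl2, 3 of the 4 Day1 libraries were above every Day7 library and Day1 replicate 4 was not. The log2 difference of Day7 from Day1 was -1.57 (SE 0.80), with an adjusted p of 0.190 in limma. The other members of that chromosomal run, Ccl8, Ccl11 and Ccl12, were read in 2 to 4 libraries with at most 102 reads in all, and Ccl1 in none.

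Cxcl1, a neutrophil attractant that acts through Cxcr2, was read at 6h and Day1 and in no Day7 library. Its values were 0, 25.4, 8.45 and 0 at 6h, 1.36, 8.76, 6.22 and 1.05 at Day1, and 0 in all 4 libraries of Day7. Every Day1 library was above every Day7 library, whereas 2 of the 4 libraries of 6h were also at 0. In all, 102 reads at 6h and 399 at Day1 stood against 0 at Day7. Against a floor of 3 reads over the Day7 group, the level was at least 41.2-fold lower than at Day1 and at least 28.8-fold lower than at 6h. The first bound was 20.8 without Day1 replicate 2 and 16.6 without Day7 replicate 1, and the second was 10.9 without 6h replicate 2 and 11.6 without Day7 replicate 1. In limma the log2 difference of Day7 from Day1 was -2.10 (SE 0.90, adjusted p = 0.127), and that of Day7 from 6h was -1.99 (SE 0.90, adjusted p = 0.246). Depth limits this contrast in Day7 replicate 3, where 3 reads were worth 1.85, more than the 1.05 and 1.36 of the lowest Day1 libraries.

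Cxcl2, a close relative and neighbour of Cxcl1 that also attracts neutrophils, was read at all 3 times. It had values of 0, 0.379, 1.69 and 7.85 at 6h, 0.618, 1.95, 1.82 and 0 at Day1, and 2.41, 2.30, 0 and 0.665 at Day7. All 3 groups overlapped. It was read in 3 of 4 libraries at each time, and the difference between Cxcl1 and Cxcl2 in their change was not tested.

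Cxcl10, induced by interferons and the ligand of Cxcr3 on activated T and NK cells, had values of 0, 0.757, 8.93 and 7.67 at 6h, 8.90, 12.2, 12.4 and 0.117 at Day1, and 1.38, 0.574, 0 and 0 at Day7. Again Day1 replicates 1 to 3 were above every Day7 library and Day1 replicate 4 lay within the Day7 range. The log2 difference of Day7 from Day1 was -2.26 (SE 0.92, adjusted p = 0.112 in limma), over 625 reads at Day1 and 23 at Day7. Cxcl9, which shares its receptor, was read in 3 libraries, with values of 0.371 and 5.31 in Day1 replicates 1 and 3 and 4.75 in Day7 replicate 1.

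Cxcl16, a transmembrane chemokine that also acts as a scavenger receptor and binds Cxcr6, had the highest Day1 mean of these ligands on values not divided by length. Per kb its Day1 mean of 6.76 was also the highest of them, with Ccl2 next at 6.33. Over all libraries its mean per kb was 3.87, under the 4.50 of Cxcl1. Its values were 31.0, 0, 10.4 and 13.8 at 6h, 9.27, 22.9, 33.2 and 32.5 at Day1, and 2.41, 3.06, 0 and 9.64 at Day7. Day7 replicate 4 was just above the lowest Day1 library, so the groups overlapped by that pair alone. The Day1 mean was 24.5 ± 11.2 (SD, n = 4) and the Day7 mean 3.78 ± 4.13 (SD, n = 4), over 2078 and 80 reads. The log2 difference was -2.73 (SE 0.99), with an adjusted p of 0.0811 in limma.

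Ccl27a, a skin chemokine that draws T cells through Ccr10 and is counted here as homeostatic, had values of 3.55, 0, 0.241 and 0.120 at 6h, 1.24, 4.05, 2.58 and 1.28 at Day1, and 0.482, 0, 0 and 0 at Day7. Every Day1 library was above every Day7 library. Depth limits this contrast in Day7 replicate 3, where 3 reads were worth 1.85, more than the 1.24 and 1.28 of the lowest Day1 libraries. The log2 difference was -1.49 (SE 0.57, adjusted p = 0.0947 in limma), over 206 and 7 reads. Ccl27a and Cxcl1 were 2 of 17 ligands whose Day7 values all lay under their Day1 values, where 14.5% of all tested genes did. Both passed the filter on low values through 6h and Day1 libraries alone. That favours such a separation, which is therefore description only.

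Other settings moved these calls. DESeq2 called 4 ligands lower at Day7 than at Day1 (Ccl2, Cxcl1, Cxcl10 and Cxcl16) and 11.1% of all genes, whereas edgeR called 0 ligands and 0.00892% of all genes lower. Scaled to all reads in place of the deposited scale, limma called 6 ligands lower (these 4 with Ccl7 and Ccl27a) and 35.1% of all genes. Scaled to reads outside haemoglobin it called the same 6 and 33.4% of all genes, and the median log2 difference over all tested genes moved from -0.48 to -1.77 and -1.60 under these scalings. A term for Y-linked reads was also tried, since these were in 3 Day1 libraries and no Day7 library. It reduced the log2 difference of Ccl2 to -1.39, of Ccl7 to -0.55, of Cxcl10 to -1.30 and of Cxcl16 to -1.71. It did not reduce that of Ccl27a, and that of Cxcl1 was little changed.

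**Figure D3:**
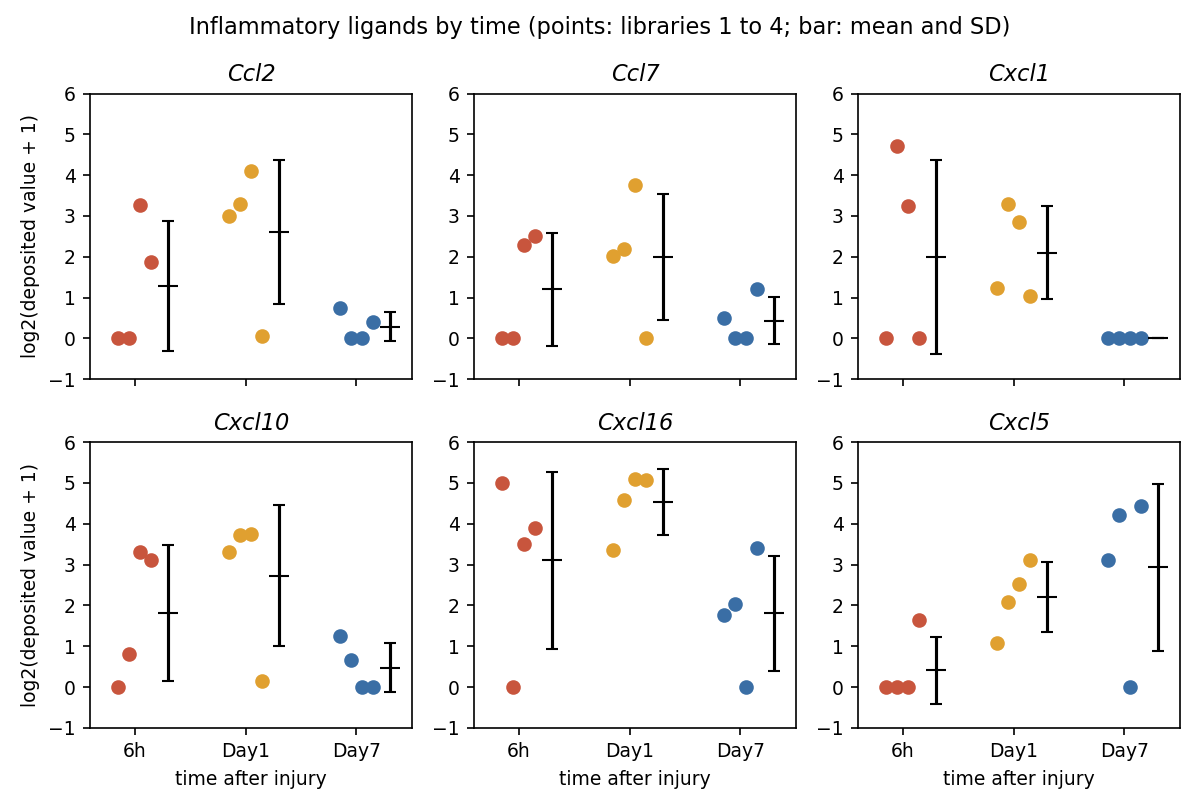
Deposited values of single ligands in each library at 6h, Day1 and Day7, as log2(value + 1). Points are libraries (4 per group) and bars give the mean and SD of the log2 values; all 4 Day7 points of Cxcl1 sit at 0, and for Ccl2 and Cxcl10 1 Day1 point lies among the Day7 points.

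Most stromal and mesothelial markers were also lower at Day7 than at Day1. The summed value of 8 fibroblast and stromal markers was 436 to 3249 at Day1 and 11.1 to 648 at Day7, and that of 6 mesothelial markers was 395 to 2091 and 1.23 to 179. limma called 4 of 7 tested stromal markers (Col1a1, Sparc, Col1a2 and Mfap5) and 5 of 6 mesothelial markers (Wt1, Krt19, Gpm6a, Lrrn4 and Msln) lower at Day7, with median log2 differences of -4.0 and -4.69. At 6h these sums were 311 to 2048 and 9.85 to 1799. The stromal marker Lum went against the rest of its list, with means of 0.593 at Day1 and 4.93 at Day7 (log2 difference 1.56, adjusted p = 0.118 in limma), and was at 0 in all 4 libraries of 6h and in Day1 replicates 3 and 4. In Day7 replicate 3 Pdgfra, Col1a2, Mfap5 and Lum, and Wt1, Krt19, Upk3b and Lrrn4, were at 0. Their part in the lower ligand values was not tested.

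limma called 2 of 6 tested neutrophil markers, Trem1 and S100a8, higher at Day7 than at Day1, with summed values of 0.311 to 77.3 at Day1 and 102 to 721 at Day7, and 0 of 3 endothelial markers. Monocyte and macrophage markers, whose cells also make Ccl2, Ccl7 and Cxcl16, summed to 77.5 to 109 at Day1 and 9.87 to 291 at Day7, and 0 of 7 tested were called in either direction by limma. The list of 10 NF-kB-driven genes and inducers, which holds Tnf, Il1b, Il6 and Nfkbia, summed to 128 to 611 at Day1 and 2.47 to 175 at Day7. Of its 8 tested genes limma called 0, with a median log2 difference of -1.60.

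**Figure D4:**
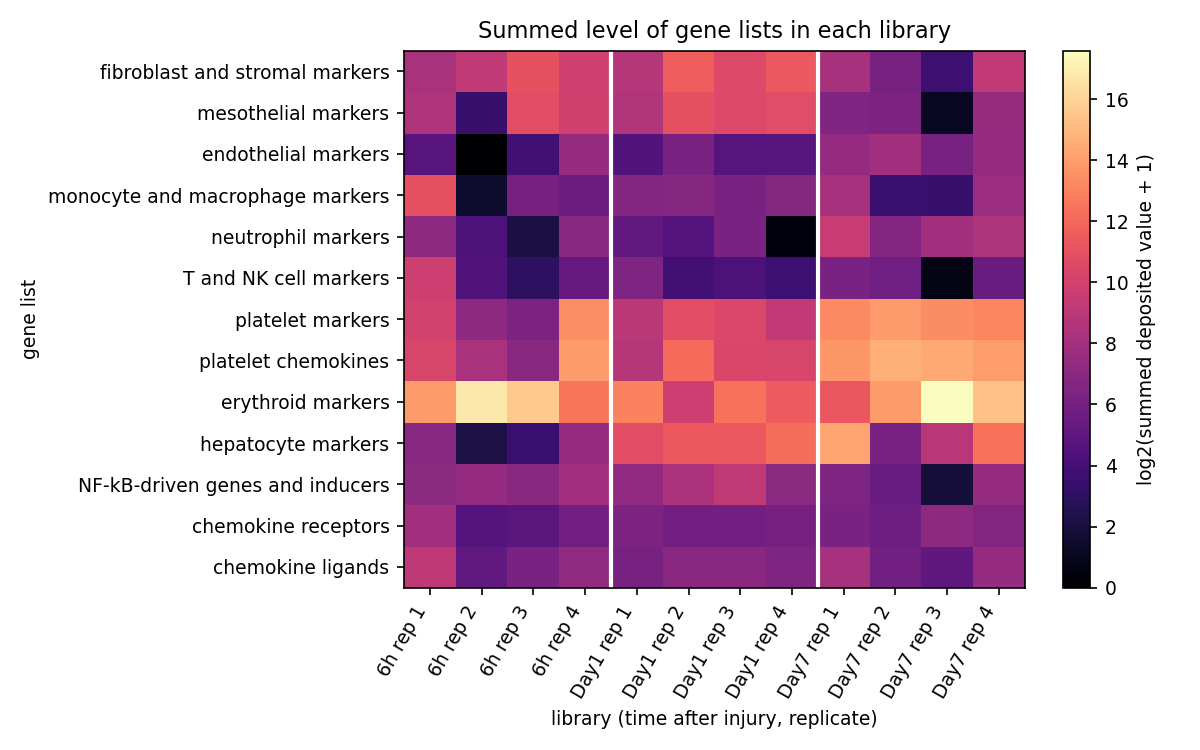
Summed level of the chemokine ligands, chemokine receptors, platelet chemokines and marker lists in each library. Rows are gene lists, columns are the 12 libraries, and colour gives log2(summed deposited value + 1). Stromal and mesothelial markers reach 3249 and 2091 at Day1 and at most 648 and 179 at Day7, whereas platelet chemokines are at 14289 or more in all 4 Day7 libraries.

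From 6h to Day1 the ligand with the lowest p was Ccl4, a macrophage inflammatory protein named here after its values were seen. It was at 0 in all 4 libraries of 6h, had values of 3.21, 0.597, 1.06 and 0.934 at Day1, and 0, 1.53, 0 and 4.66 at Day7. Every Day1 library was above every 6h library, and Day7 overlapped both. On 83 reads at Day1 and 0 at 6h, it was at least 10.1-fold higher at Day1 against a floor of 3 reads over the 6h group. That bound was 7.74 without Day1 replicate 1 and 4.26 without 6h replicate 4. The log2 difference was 1.19 (SE 0.57, adjusted p = 0.447 in limma). In 6h replicate 2 depth limits this contrast, since 3 reads were worth 1.14 there, more than the values of Day1 replicates 2 to 4. In 6h replicate 3 they were worth 0.724, more than the 0.597 of Day1 replicate 2. Among the 17 ligands, Ccl4 was the 1 with groups that did not overlap in that direction, where 5.52% of all tested genes were so. It passed the filter on low values through Day1 and Day7 libraries alone. That favours such a separation, which is therefore description only.

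Ccl4 was likewise the 1 ligand higher at Day1 with an unadjusted p under 0.05 in limma, against 9.77% of all genes, and 0 ligands were lower, against 1.39%. limma called 0.169% of all genes at an adjusted p under 0.05 in this comparison. edgeR and DESeq2 called 0 ligands, and 0.0803% and 1.48% of all genes higher. Scaled to all reads, limma called 1 ligand higher, Ccl4, and 10.7% of all genes. The median log2 difference of Day1 from 6h was 0.68 over the 17 ligands, 0.92 over the 11 inflammatory ones and 0.27 over the 4 homeostatic ones, beside 0.52 over all tested genes. The homeostatic median turned to -1.25 in edgeR, -1.27 in DESeq2, -0.09 with a pseudocount of 4, -0.01 with no filter, -0.21 without 6h replicate 2 and -0.08 without Day1 replicate 2, and was 1.06 without 6h replicate 1. The inflammatory median stayed above 0 in every alternative run, from 0.38 with no filter to 1.77 scaled to all reads, with 0.45 without 6h replicate 1. The median over all tested genes was above 0 in each of these runs too, at 0.17 with no filter and 1.57 scaled to all reads. Without Day1 replicate 3 it was 0.52, above the 0.46 of the inflammatory ligands.

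Ccl3, the close relative and neighbour of Ccl4 that also attracts macrophages and granulocytes, had values of 0.560, 0, 0 and 6.23 at 6h, 3.21, 1.95, 0.834 and 6.73 at Day1, and 0.825, 0.766, 0 and 49.6 at Day7. It was read in all 4 Day1 libraries, and its highest value was that of Day7 replicate 4. That library held 149 of the 165 Ccl3 reads of Day7. The groups overlapped.

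From 6h to Day7 the ligand with the lowest p was Cxcl5, a neutrophil attractant of the same chromosomal run as Cxcl1 and Cxcl2 and of the platelet chemokines Ppbp and Pf4. Cxcl5 had values of 0, 0, 0 and 2.10 at 6h, 1.11, 3.23, 4.70 and 7.63 at Day1, and 7.57, 17.6, 0 and 20.6 at Day7. Day7 replicates 1, 2 and 4 were above every 6h library and replicate 3 was at 0, so the groups overlapped. The 6h mean was 0.525 ± 1.05 (SD, n = 4), the Day1 mean 4.17 ± 2.74 (SD, n = 4) and the Day7 mean 11.4 ± 9.45 (SD, n = 4). The log2 difference of Day7 from 6h was 2.53 (SE 0.93, adjusted p = 0.153), and that of Day1 from 6h was 1.79 (SE 0.93, adjusted p = 0.467), both in limma. Without Day7 replicate 3 the former was 3.51 with an adjusted p of 0.0447.

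Between 6h and Day7, Cxcl5 was the 1 ligand higher at an unadjusted p under 0.05 in limma, where 12.1% of all genes were, and Cxcl1 the 1 lower, where 5.9% were. With an adjusted p under 0.05 limma called 0 of 17 ligands and 0.883% of all genes. No ligand had groups that did not overlap, where 3.45% of all genes were higher and 2.38% lower in that way. edgeR called 0 ligands, with 0.517% of all genes higher and 0.232% lower. DESeq2 called 1 ligand lower, Cxcl1, and 6.99% of all genes.

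Ccl5 and Ccl6 were the ligands found in every library. Ccl5, made by T cells, NK cells and platelets, had values of 38.8, 0.379, 0.724 and 12 at 6h, 7.66, 1.54, 1.37 and 5.61 at Day1, and 12.3, 16.8, 1.23 and 12.3 at Day7. At Day7 3 of 4 libraries were above every Day1 library, and 6h held both the highest and the lowest value. Ccl6, made by myeloid cells of rodents, had values of 23.9, 0.379, 13.3 and 40.6 at 6h, 9.52, 31.4, 15.5 and 23.2 at Day1, and 152, 11.1, 4.32 and 60.5 at Day7. Its groups overlapped, and Day7 replicate 1 held 2215 of the 2462 Ccl6 reads of Day7.

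Ccl9, which is a neighbour of Ccl6 and Ccl5 and is made by macrophages and myeloid cells, had values of 0, 0, 5.79 and 29.3 at 6h, 1.24, 4.87, 1.44 and 1.13 at Day1, and 22.1, 2.49, 13.6 and 3.33 at Day7. The 6h libraries ran from 0 to the highest value of all, and the 3 groups overlapped. Cxcl13, the B cell attractant of lymphoid follicles, had a mean under 10 in every group. Its values were 0, 0, 3.62 and 9.11 at 6h, 2.47, 7.35, 5.08 and 0.662 at Day1, and 14.2, 0, 0 and 5.32 at Day7, with overlap among all groups.

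Several ligands of lymphoid organs and dendritic cells had their highest value in 6h replicate 1, but Cxcl13 of lymphoid follicles, Ccl17 and Xcl1 had no read there. Ccl25 had values of 337, 1.51, 0 and 0 at 6h, 2.47, 1.51, 2.81 and 0 at Day1, and 12.3, 0, 14.2 and 0.665 at Day7. Of its 1808 reads at 6h, 1804 came from that library. Ccl22, a dendritic cell and macrophage product that draws regulatory and type 2 helper T cells, had values of 65.3, 0.757, 0 and 0 at 6h, 0 in all 4 Day1 libraries, and 0.619, 0, 0 and 2.33 at Day7, with 350 of its 352 reads at 6h in replicate 1. Cxcl12, which retains stem cells and leukocytes in bone marrow through Cxcr4, had values of 54.0, 0, 0.241 and 0 at 6h, 2.60, 4.65, 1.44 and 0 at Day1, and 26.6, 0, 0 and 0.333 at Day7. Its reads at 6h came from replicate 1 but for 1 of 290, and those at Day7 from replicate 1 but for 1 of 387.

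Cxcl12 was read in 3 of the 4 Day1 libraries at low values, and at 6h and Day7 almost wholly in 1 library of each. Ccl19, another T cell zone ligand, reached 4.48 in 6h replicate 1 and at most 0.574 elsewhere. In that same library 9 T and NK cell markers summed to 876, against 7.0 to 40.8 in the other 6h libraries. Its monocyte and macrophage markers summed to 2046, against 1.89 to 65.7, while Emr1, Fcgr1 and Ms4a7 were at 0. Ccr7, the receptor of Ccl19 and Ccl21 on T cells and dendritic cells, was at 112 there and at 0 in the other 6h libraries. Whether these cells were the source of the ligands was not tested.

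The remaining ligands with a read were low. Of the inflammatory ones, Ccl24 had its highest value, 4.82, in Day7 replicate 1, and Cx3cl1 its highest, 4.17, in 6h replicate 2. Ccl8 reached 2.61, Ccl11 4.27, Ccl12 8.40 and Cxcl3 0.894. Cxcl14, which is homeostatic, reached 4.204 in Day1 replicate 4 and was at 0 in all Day7 libraries. Xcl1, made by activated T and NK cells, reached 3.18, and Ccl17, Cxcl15 and Cxcl17 were read in 2 or 3 libraries with at most 21 reads each.

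Over all 17 tested ligands the median log2 difference of Day7 from Day1 was -0.11, beside -0.48 over all tested genes. It was -0.23 over the 11 inflammatory and -0.26 over the 4 homeostatic ligands, and 1.05 over Ccl6 and Ccl9. The median over the 17 ligands was not stable. It was -1.30 scaled to all reads, where all 17 ligands were lower, -1.06 scaled to reads outside haemoglobin, 0.57 in edgeR and 0.03 in DESeq2, 0.23 without Day7 replicate 2 or 3, -0.72 without Day7 replicate 1 and -0.74 without Day7 replicate 4. That of Ccl6 and Ccl9 turned to -0.69 scaled to all reads and -0.47 outside haemoglobin. For Day7 against 6h the median was -0.20 over the 17 ligands and 0.13 over all genes, and the former was 0.52 without 6h replicate 1 and -1.06 in DESeq2. A gene passed the filter on low values through the libraries where it was high, so these medians describe the 17 tested ligands and not the whole family.

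Of 25 rows of chemokine receptors 10 were tested, and limma called 1, lower at Day7 than at Day1, and 0 in the other comparisons. It was Cxcr7 (also named Ackr3), an atypical receptor that binds and clears Cxcl12. Cxcr7 had values of 4.85, 0, 11.1 and 20.4 at 6h, 3.71, 36.6, 18.7 and 24.6 at Day1, and 0.0688, 0, 0 and 0.665 at Day7. Every Day1 library was above every Day7 library, with a log2 difference of -3.90 (SE 0.95, adjusted p = 0.0282 in limma). The call was lost when replicate 2, 3 or 4 of either time was left out (adjusted p up to 0.0855), in edgeR (0.110), with no filter on low values (0.0825) and with the term for Y-linked reads (0.351). The fall in stromal and mesothelial markers given above lies between the same libraries, and its part in this difference was not tested.

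Among the other receptors with a mean of at least 10 in a group, Darc, a red cell and endothelial decoy receptor, ran from 0 in 2 Day1 libraries to 86.4 in Day7 replicate 3. Ccrl2 was at 46.9 in the same library. Xcr1, the receptor of Xcl1, was at 18.9, 14.7, 1.23 and 17.3 at Day7, at most 4.48 at Day1, and at 13.8 in 6h replicate 4. Cxcr3, the receptor of Cxcl9 and Cxcl10, was at 49.3 in 6h replicate 1 and at 0 in 3 of 4 Day7 libraries. Of receptors named after their values were seen, Ccr9, the receptor of Ccl25, had values of 33.2, 0, 0.241 and 0 at 6h, 26.0, 2.45, 6.14 and 2.18 at Day1, and 0 in all Day7 libraries. Cxcr4, the signalling receptor of Cxcl12, had 30 reads over all 12 libraries.

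The platelet chemokines Ppbp and Pf4, which the naming rule leaves out, lie in the chromosomal run of Cxcl5, Cxcl3, Cxcl15, Cxcl1 and Cxcl2. In each group their means were far higher than that of any ligand above. Their summed value was 1222, 306, 117 and 15556 at 6h, 441, 4394, 1308 and 1233 at Day1, and 14289, 26423, 21054 and 16125 at Day7. Every Day7 library was above every Day1 library, and 6h replicate 4 lay within the Day7 range. In 6h replicate 1 Ppbp was at 464, not far above the 337 of Ccl25. The log2 difference of Day7 from Day1 was 4.06 for Ppbp (SE 1.15, adjusted p = 0.0415 in limma) and 3.64 for Pf4 (SE 1.20, adjusted p = 0.0633). The Ppbp call held in 6 of 12 other settings and in 5 of 12 runs with 1 library left out. It was lost with no filter (adjusted p = 0.138), with scaling to all reads (0.217, log2 difference 1.89) or to reads outside haemoglobin (0.115), with the Y-linked term (0.127), in edgeR (0.129) and without both libraries that had the fewest genes (0.0787). It was also lost without any single Day1 library and without Day7 replicate 2, 3 or 4, with an adjusted p of at most 0.101. Platelet markers were 515 to 1896 at Day1 and 8957 to 15397 at Day7 in summed value, and 5 of 7 were called higher by limma. Within that chromosomal run, Cxcl1 was thus at 0 reads at Day7, the 4 libraries in which Ppbp was higher than in any Day1 library.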

How the data were processed

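The authors deposited 1 table with a signal per gene for 12 total RNA libraries, headed CPM per the file headers. The submitters' processing notes name STAR 2.7.10, HTSeq 2.0.1 and mm9. For the annotation and the scaling nothing is stated in these sources. The columns do not sum to a constant. Every column held whole multiples of the value of 1 read: 100% of values were whole within 0.001 reads, which gave back the reads. Groups were taken from the sample titles. The main test was limma 3.58.1 with a trended variance on log2(value + 1) over all 12 libraries, for genes at 1 or more in at least 4 libraries, two-sided, adjusted by Benjamini-Hochberg over all tested genes with a threshold of 0.05. The pseudocount makes differences of low genes smaller. On the recovered reads edgeR 4.0.16 (quasi-likelihood) called 9 genes for Day1 against 6h, 1 for Day7 against Day1 and 84 for Day7 against 6h, and DESeq2 1.42.0 called 193, 1766 and 1060. The limma fit was also run on simulated counts with large set changes. No result above rests on that run, and it does not show how well ligands with few reads are tested. Intervals and floors of 3 reads cover counting error only. Ligands with a mean of at least 10 in a group, or called, were named with every value. Members and gene lists were chosen with earlier results of these data known. Promoters came from the RefSeq table on GRCm38.p6, another build than mm9, matched by symbol. Alternatives were pseudocounts of 0.25 and 4, no filter, other scalings, a term for Y-linked reads, the replicate number as a block, and each library left out.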

Additional observations from a re-analysis of the deposited data

Results flagged for a closer look

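Within 11 of the 45 sets of 4 libraries examined, 1 library lay far from the other 3 on the log2 scale. The sets did not cover every tested ligand. Ccl24 was left out, at 2.16 in 6h replicate 4 and 0 in the other 6h libraries. Chance marks about 1 such set in 20 where values are normally distributed, which these are not. With 3 libraries at 0, as for Cxcl5 at 6h and Ccl27a at Day7, any read is marked. The rate expected for values like these was not computed, so the number of sets cannot be compared with chance. In 6h replicate 1, Ccl25 was at 337 where the other 6h libraries were at 0 to 1.51, Ccl22 was at 65.3 against 0 to 0.757, Cxcl12 at 54.0 against 0 to 0.241, and Ccl27a at 3.55 against 0 to 0.241. In Day7 replicate 1, Cxcl12 was at 26.6 against 0 to 0.333, and Ccl27a at 0.482 against 0. Ccl3 was at 49.6 in Day7 replicate 4 against 0 to 0.825 in the other Day7 libraries. Ccl5 was at 1.23 in Day7 replicate 3 against 12.3 to 16.8. Cxcl10 was at 0.117 in Day1 replicate 4 against 8.90 to 12.4, and Ccl9 at 4.87 in Day1 replicate 2 against 1.13 to 1.44. Cxcl5 was at 2.10 in 6h replicate 4 and at 0 in the other 6h libraries. The cause was not tested in any of these sets.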

How the results depend on the processing

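No ligand was called by limma under the main settings. The log2 differences printed for Ccl2, Ccl7, Cxcl1, Cxcl10, Cxcl16, Ccl27a, Cxcl5 and Ccl4 kept their sign under the alternatives run for them. Ccl4 was tested in 8 of the 12 runs with 1 library left out. Other ligands were not followed one by one, and some changed sign: at Day7 against Day1, 7 of 17 were higher under the main settings and 0 of 17 scaled to all reads. Calls of ligands appeared with scaling to all reads (1 higher at Day1 than at 6h, 6 lower at Day7 than at Day1), scaling to reads outside haemoglobin (6 lower at Day7 than at Day1) and DESeq2 (4 lower at Day7 than at Day1 and 1 lower at Day7 than at 6h). With single libraries left out, 0 to 1 ligands were lower at Day7 than at Day1 (Ccl27a without 6h replicate 1, Cxcl16 without 6h replicate 2) and 0 to 1 higher at Day7 than at 6h (Cxcl5 without Day7 replicate 3).

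Over all genes, limma called 19 between 6h and Day1, 648 between Day1 and Day7 and 99 between 6h and Day7. For the first comparison the count was 0 with a pseudocount of 4, 0 with no filter, 1243 scaled to all reads, 485 scaled to reads outside haemoglobin, 2 with the Y-linked term, 9 in edgeR, 193 in DESeq2 and 4 without both libraries that had the fewest genes, a setting chosen after seeing the data. For the second it was 57 with no filter, 4075 and 3866 under these scalings, 0 with the Y-linked term, 1 in edgeR, 1766 in DESeq2 and 416 without both of those libraries. For the third it was 5 with a pseudocount of 4, 13 with no filter, 0 and 32 under the scalings and 1060 in DESeq2. Leaving out each library in turn gave 2 (without 6h replicate 3) to 64 (without Day7 replicate 1), 3 (without Day1 replicate 3) to 1185 (without 6h replicate 1), and 3 (without 6h replicate 3) to 695 (without 6h replicate 4). The causes were not tested.

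With the replicate number as a block, 45, 571 and 156 genes and 0 ligands were called. Same-numbered libraries correlated in their deviations at -0.23 to 0.12, with 1 of 12 pairs over 0.1. In 4 of 24 comparisons the correlation was highest with the library's own number. With so few libraries this check cannot show whether same-numbered libraries share more than a number. Depth limits what a 0 means: 3 reads were worth 0.0942 in Day1 replicate 2 and 1.85 in Day7 replicate 3.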
